A study of Mus musculus with 6 samples.

Results

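The MAP kinase phosphatases are 10 dual-specificity phosphatase genes, found among the 22913 genes of the deposited tables by their symbols. Grouped by where the proteins act and what they act on, they are the nuclear phosphatases Dusp1, Dusp2, Dusp4 and Dusp5, the cytoplasmic ERK phosphatases Dusp6, Dusp7 and Dusp9, and Dusp8, Dusp10 and Dusp16, which act mainly on JNK and p38. Polyadenylated RNA was sequenced from HL-1 cells, a mouse line grown from an atrial tumour that carried the SV40 large T antigen. 3 control libraries came from cells given a control plasmid and 3 HSPA1A libraries from cells given an overexpression plasmid for HSPA1A, the stress-inducible HSP70 chaperone, which the treatment label calls human. The plasmids went in with a lipid reagent, and the cells were collected 48 h later. All 10 phosphatases had enough reads to be tested and none passed the threshold between the groups, where 23 of 12827 tested genes (0.179%) did.

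MAP kinases are switched on when a kinase above them phosphorylates a threonine and a tyrosine in the activation loop, and these phosphatases switch them off by removing both phosphates. Each protein pairs a kinase-binding region with a catalytic domain, and several of the genes are themselves induced by the kinases they restrain, which makes them feedback brakes. In heart muscle, ERK, JNK and p38 signalling is known for its part in growth, stress responses and remodelling, and Dusp6 and Dusp1 are among the brakes studied there.

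The coding sequences share the catalytic signature of this enzyme family, a histidine followed by a cysteine and, after 5 residues, an arginine. All 10 members hold the stretch, and it is printed for those other than Dusp2, Dusp5 and Dusp9. The counts of identical bases below, over all 10, show how far their messages differ at this shared site. Each line gives 24 bases of the GENCODE M21 transcript, 5′ to 3′, with the codons of the catalytic cysteine and the arginine in capitals.
Dusp1: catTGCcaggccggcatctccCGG
Dusp4: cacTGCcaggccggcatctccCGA
Dusp6: catTGCttggcaggtatcagcCGC
Dusp7: cacTGCctagcaggcatcagcCGT
Dusp8: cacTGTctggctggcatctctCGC
Dusp10: cacTGCcaggccggcgtgtccCGA
Dusp16: cacTGCttagctgggatctctCGC
Over all 45 pairs of the 10 genes, between 13 and 22 of the 24 bases were identical, with a median of 19 for the 12 pairs of the same class and 17 for the 33 pairs of different classes. The longest run of bases shared by any pair of the transcripts was 22 bases, shorter than the 150-nt reads.

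The libraries held between 23849656 and 26897086 reads. Nothing in the labels says that replicates were separate cultures, and the p-values therefore measure only how far these libraries spread, which may be technical. Mouse Hspa1a had 10, 17 and 11 reads in the control and 17, 20 and 11 in the HSPA1A libraries, with a log2 fold change of 0.39 and an adjusted p of 0.795 in edgeR's quasi-likelihood test. Reads of a human transcript are counted only as far as they align to a mouse gene, so this checks the labels weakly. A principal component analysis put HSPA1A replicate 2 apart from its group. On its first axis (33.5% of the variance) that library had -15.6, beyond the controls at -8.77 to -4.72, and the other HSPA1A libraries 17.1 and 19.3. Calls among the phosphatases and the lists below are given with and without it. The noncoding RNA Yam1, which overlaps ribosomal RNA, took 1.18% to 1.86% of the reads in control libraries. In HSPA1A replicates 1 to 3 it took 2.70%, 1.58% and 2.53%, so only HSPA1A replicate 2 lay within the control range. Without that library the groups do not overlap in Yam1, and its part in the calls of that fit was not tested. Of 17 heart muscle markers, 8 averaged over 1 CPM (reads scaled by library size), and their summed level was 717 to 739 CPM over the controls and 647 to 686 CPM with HSPA1A. Most of that sum was Des, at a mean of 645 and 583 CPM, while Tnnt2 stood at 39.1 and 42.0 CPM, neither called. The cardiac transcription factor gene Gata4 stood at 32.3 and 32.8 CPM, while the sarcomere and calcium-release genes Actn2, Actc1, Tnni3 and Ryr2 had 1, 3, 7 and 11 reads over all 6 libraries, and Nppa, Myh6, Myl7 and Hand2 were not analysed here. Of 10 fibroblast markers, 6 averaged over 1 CPM, led by the collagens Col3a1 and Col1a2, with sums of 852 to 888 CPM over the controls and 789 to 930 CPM with HSPA1A. Of the others, Postn stood at 0.55 and 0.53 CPM, Lum and Thy1 had 1 read each over all 6 libraries, and Tcf21 was not analysed here. No endothelial marker of 5 averaged over 1 CPM, and of 5 macrophage markers only Cd68 did. The part of any of these in the phosphatase values was not tested. In such bulk samples, fewer cells of a type and less RNA per cell cannot be told apart.

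Levels between genes were compared as FPKM, which divides by gene length and library size. Mean levels ran from 1.66 to 34.0 FPKM, headed by one JNK and p38 phosphatase, one ERK phosphatase and a pair of nuclear ones. Dusp10, which restrains p38 and JNK, stood highest at a mean of 34.0 FPKM over the 6 libraries, with a range of 32.9 to 35.2. Dusp6, the ERK-selective feedback phosphatase, followed at 29.8 FPKM (27.4 to 32.4). Dusp5, which binds and dephosphorylates ERK in the nucleus, stood at 25.6 FPKM (23.7 to 27). Of all 22833 genes listed with FPKM, 8.79% exceeded Dusp10 and 9.78% exceeded Dusp6. Only 10550 of the listed genes had a mean of at least 1 FPKM. Dusp1, the immediate-early phosphatase of p38, JNK and ERK, averaged 22 FPKM (20.97 to 23.03). Dusp4, its nuclear relative, averaged 10.97 FPKM (10 to 11.76), and Dusp16, a JNK-directed phosphatase with a long C-terminal tail, 7.51 FPKM (6.94 to 8.05). Dusp7 and Dusp8 lay side by side. Dusp7, an ERK phosphatase, averaged 4.98 FPKM (4.16 to 5.92), and Dusp8, a JNK and p38 phosphatase, 4.85 FPKM (4.26 to 5.30). Dusp9, an ERK phosphatase known for its roles in placenta and pluripotent cells, averaged 3.51 FPKM (3.17 to 3.82). Dusp2, best known from activated immune cells, was lowest at 1.66 FPKM (1.06 to 2.04), and 42.4% of listed genes exceeded it. Along this order only Dusp7 and Dusp8 had overlapping ranges, with Dusp7 the higher in 2 of 6 libraries. Every other neighbour was separated in all 6 libraries.

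**Figure D1:**
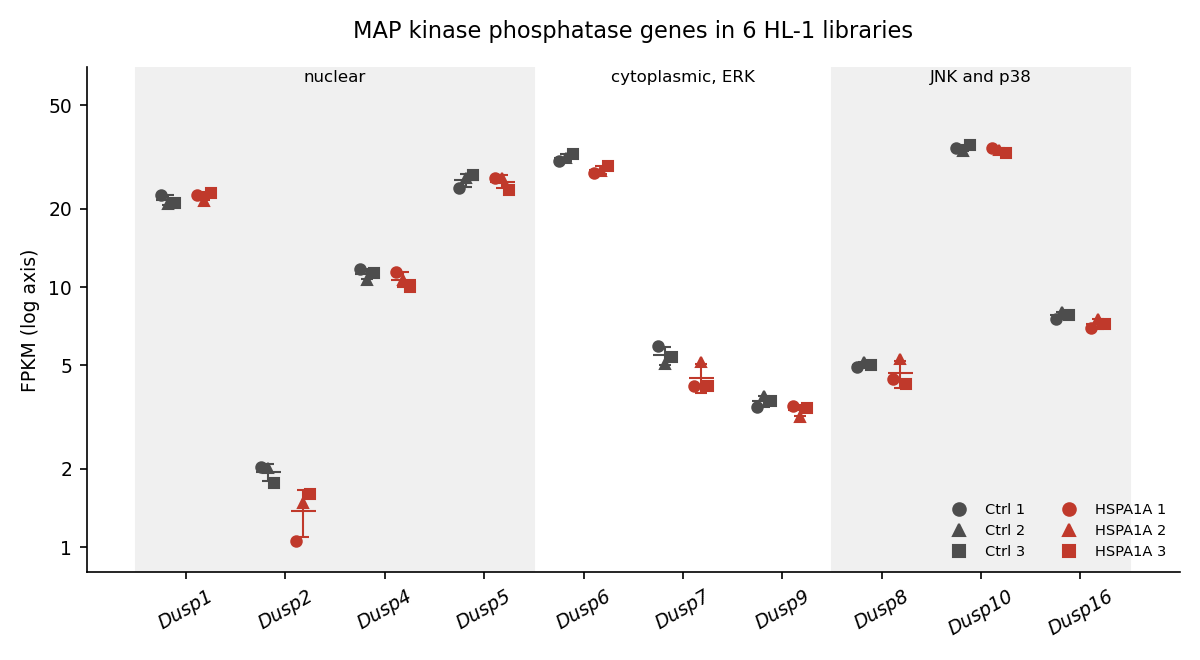
FPKM (log axis) of each phosphatase in the 3 control (grey) and 3 HSPA1A (red) libraries, with marker shapes for the replicate number, the group mean as a horizontal bar and the SD as an error bar. Dusp10 and Dusp6 stand highest, near 34.0 and 29.8 FPKM, Dusp2 stands lowest at 1.66 FPKM, and Dusp7 and Dusp8 overlap.

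Across the 10 genes, differences between the groups were small. Log2 fold changes ran from -0.43 to 0.11, with 3 above and 7 below 0 and a median of -0.051, against a median of 0.0029 over all tested genes. Of the 10, 2 had an unadjusted p under 0.05 in edgeR's quasi-likelihood test, both lower in HSPA1A libraries (Dusp2 and Dusp7), where 4.26% of all tested genes did so in that direction. DESeq2 and limma-voom also called 0 of the 10. In 1 of the 10, Dusp2, every HSPA1A library lay below every control library, against 7.17% of all tested genes. In 0 of the 10 did every HSPA1A library lie above, against 7.30%.

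Among the nuclear phosphatases, Dusp2 (chr2:127336159-127338376, plus strand, GRCm38) had the lowest counts. It had 94, 85 and 80 reads in the control and 45, 69 and 70 reads in the HSPA1A libraries. Scaled by TMM these were 3.53, 3.41 and 3.03 CPM in control and 1.92, 2.55 and 2.90 CPM in HSPA1A libraries. The groups did not overlap, but HSPA1A replicate 3 lay just under control replicate 3, and HSPA1A replicate 1 was well below the rest. The means were 3.32 ± 0.26 CPM and 2.46 ± 0.49 CPM (SD, n = 3 each), 1.35 times lower with HSPA1A. The log2 fold change was -0.43 (95% interval -0.84 to -0.029), with an adjusted p of 0.553 in edgeR's quasi-likelihood test. Without HSPA1A replicate 2 it was -0.46 (95% interval -0.89 to -0.027), with an adjusted p of 0.174 in that test, also not called.

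Dusp1 (chr17:26505590-26508519, minus strand), known to be induced by stress and by the kinases it inactivates, was not called either. Its CPM were 48.3, 43.8 and 44.4 in the control and 50.4, 45.5 and 51.4 in the HSPA1A libraries. The groups overlapped, since HSPA1A replicate 2 lay among the controls and the other HSPA1A libraries above them. The means were 45.5 ± 2.5 and 49.1 ± 3.2 CPM (SD, n = 3 each), a log2 fold change of 0.11 (95% interval -0.036 to 0.25, adjusted p = 0.676). Without HSPA1A replicate 2 it was 0.16 (95% interval 0.042 to 0.29), with an adjusted p of 0.0854, also not called.

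Dusp4 (chr8:34807297-34819894, plus strand) had 34.5, 30.7 and 32.7 CPM in control and 34.9, 31.2 and 30.7 CPM in HSPA1A libraries. Both groups covered nearly the same range. Its log2 fold change was -0.017, with a 95% interval of -0.17 to 0.14. Dusp5 (chr19:53529109-53542431, plus strand) had 63.5, 68.1 and 70.5 CPM in control and 72.8, 69.1 and 65.8 CPM in HSPA1A libraries. Its groups also overlapped, and the log2 fold change was 0.039 (95% interval -0.094 to 0.17). It overlaps AC137853.2 on the other strand, and no source used here says whether reads were counted by strand. The adjusted p was 0.956 for Dusp4 and 0.887 for Dusp5.

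The 3 cytoplasmic ERK phosphatases had log2 fold changes below 0, although that of Dusp9 was 0.0055 without HSPA1A replicate 2. Dusp7 (chr9:106368632-106375724, plus strand) had 20.4, 17.1 and 18.3 CPM in the control libraries and 14.94, 17.61 and 14.98 CPM in the HSPA1A libraries. HSPA1A replicates 1 and 3 lay below every control, while HSPA1A replicate 2 lay between control replicates 2 and 3. The means were 18.6 ± 1.6 and 15.8 ± 1.5 CPM (SD, n = 3 each), 1.17 times lower with HSPA1A, and the log2 fold change was -0.23 (95% interval -0.44 to -0.019, adjusted p = 0.548). Without HSPA1A replicate 2, Dusp7 was called lower, at -0.31 ± 0.087 (SE; 95% interval -0.50 to -0.13) with an adjusted p of 0.0338. That fit called 640 of 12955 genes (4.94%) lower, beside 1 of 10 phosphatases. In a fit with Yam1 as a covariate the Dusp7 value was -0.20 ± 0.14 (SE), with an adjusted p of 0.999.

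Dusp6 (chr10:99263231-99267488, plus strand), the more abundant ERK phosphatase, had 91.1, 91.9 and 95.6 CPM in control and 85.5, 83.4 and 91.6 CPM in HSPA1A libraries. HSPA1A replicate 3 lay just above control replicate 1, and the other HSPA1A libraries lay below every control. The means were 92.9 ± 2.4 and 86.8 ± 4.2 CPM (SD, n = 3 each), with a log2 fold change of -0.098 (95% interval -0.22 to 0.023, adjusted p = 0.650). On the FPKM scale every HSPA1A library lay below every control library, as it did for 15.1% of the 10550 genes with a mean of at least 1 FPKM. The values were 30.5, 31.4 and 32.4 FPKM in control and 27.4, 28.0 and 29.2 FPKM in HSPA1A libraries. On log2 of FPKM plus 1 over those genes, limma-trend gave Dusp6 a difference of -0.15 with an adjusted p of 0.355, where the median gene stood at -0.049. Dusp9 (chrX:73639419-73643514, plus strand) had 10.1, 10.9 and 10.5 CPM in control and 10.6, 9.20 and 10.5 CPM in HSPA1A libraries. Only HSPA1A replicate 2 lay outside the control range. The log2 fold change of Dusp9 was -0.061 (95% interval -0.27 to 0.15, adjusted p = 0.887).

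Per class, the summed CPM of the ERK phosphatases was 122, 120 and 124 in control and 111, 110 and 117 in HSPA1A libraries. Their summed FPKM was 39.9, 40.3 and 41.5 in control and 35.0, 36.3 and 36.8 in HSPA1A libraries. On CPM the groups of this class did not overlap, and Dusp6 made up most of the sum. Among single tested genes, 7.17% had every HSPA1A library below every control library. The nuclear class summed to 150, 146 and 151 CPM in the controls and 160, 148 and 151 CPM with HSPA1A. The JNK and p38 class summed to 169, 167 and 171 CPM and to 170, 168 and 167 CPM. In both of these classes the groups overlapped on CPM. On FPKM the JNK and p38 class did not overlap either, at 46.8, 46.7 and 48.1 in control and 45.6, 46.5 and 44.4 in HSPA1A libraries. Nor did the sum of all 10, at 147.1, 146.9 and 150.7 against 142.2, 142.6 and 139.5 FPKM, so the lower FPKM sums were not particular to the ERK class. Of the 10550 genes with a mean of at least 1 FPKM, 15.1% also had every HSPA1A library below every control library. The median difference of those genes was -0.049 on log2 of FPKM plus 1. No test was made of these sums, which were formed with earlier results known.

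The JNK and p38 phosphatases all had overlapping groups. Dusp10 (chr1:184034381-184075636, plus strand) had 102.5, 97.9 and 103.8 CPM in control and 106.8, 100.1 and 102.9 CPM in HSPA1A libraries. HSPA1A replicate 1 was the highest library, and the other 2 lay within the control range, with a log2 fold change of 0.026 (95% interval -0.088 to 0.14). Dusp16 (chr6:134715473-134792625, minus strand) had 41.1, 43.1 and 42.0 CPM in control and 39.5, 41.1 and 41.2 CPM in HSPA1A libraries. HSPA1A replicate 3 lay above control replicate 1, so the groups overlapped, and the log2 fold change was -0.050 (95% interval -0.17 to 0.067). Dusp16 overlaps Gm36328 on the other strand. Dusp8 (chr7:142079490-142095272, minus strand) had 25.2, 26.0 and 25.5 CPM in control and 23.8, 27.1 and 22.9 CPM in HSPA1A libraries. The 3 controls lay within 1 CPM of each other, with HSPA1A replicate 2 above and the other HSPA1A libraries below them. Its log2 fold change was -0.053 (95% interval -0.22 to 0.11). Without HSPA1A replicate 2 it was -0.13 (adjusted p = 0.239) and without HSPA1A replicate 3 -0.0018. Adjusted p-values were 0.910 for Dusp10, 0.828 for Dusp16 and 0.876 for Dusp8.

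**Figure D2:**
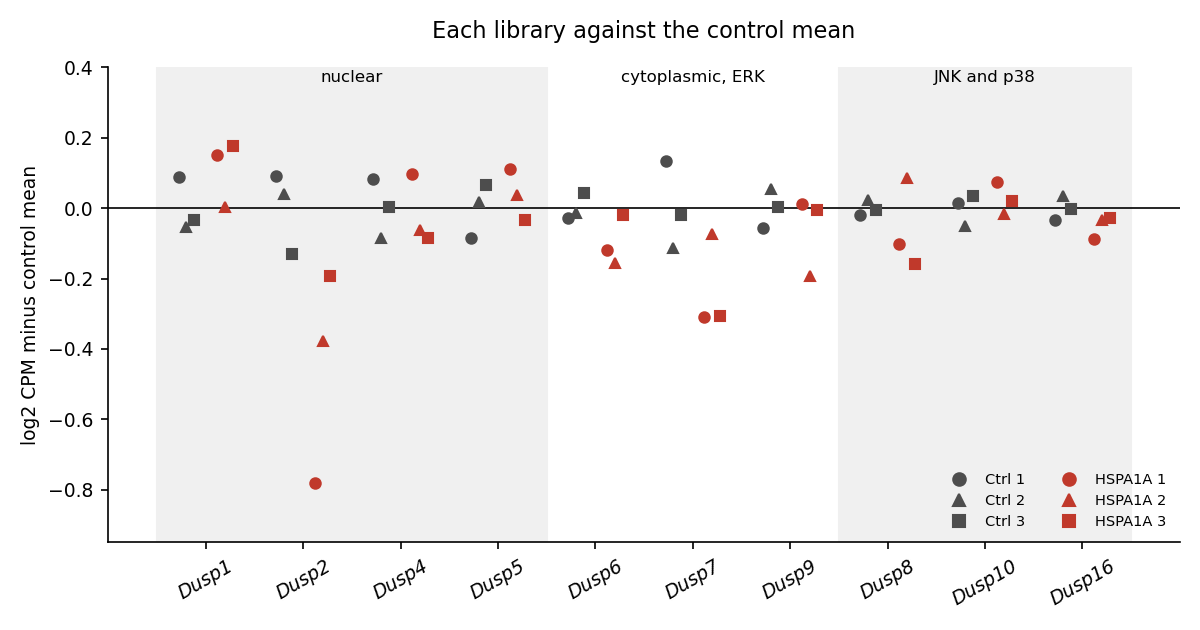
Log2 CPM of each library minus the mean of the 3 control libraries for each phosphatase, in control (grey) and HSPA1A (red) libraries, with marker shapes for the replicate number. Dusp2 reaches -0.78 in HSPA1A replicate 1, and Dusp7 stands at -0.31 in HSPA1A replicates 1 and 3 but at -0.074 in HSPA1A replicate 2.

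The HSPA1A libraries did not share one pattern over the phosphatases. Relative to the control mean, HSPA1A replicate 2 lay at -0.074 for Dusp7 and 0.086 for Dusp8 on the log2 scale. HSPA1A replicates 1 and 3 lay at -0.31 and -0.31 for Dusp7 and at -0.10 and -0.16 for Dusp8. Dusp1 lay at 0.0018 in HSPA1A replicate 2, against 0.15 and 0.18 in HSPA1A replicates 1 and 3. Dusp2 was below the control mean in all 3, at -0.78, -0.38 and -0.19. Of the 10 phosphatases, 5, 7 and 8 lay below the control mean in HSPA1A replicates 1 to 3, beside about 49.1% of all tested genes in each.

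**Figure D3:**
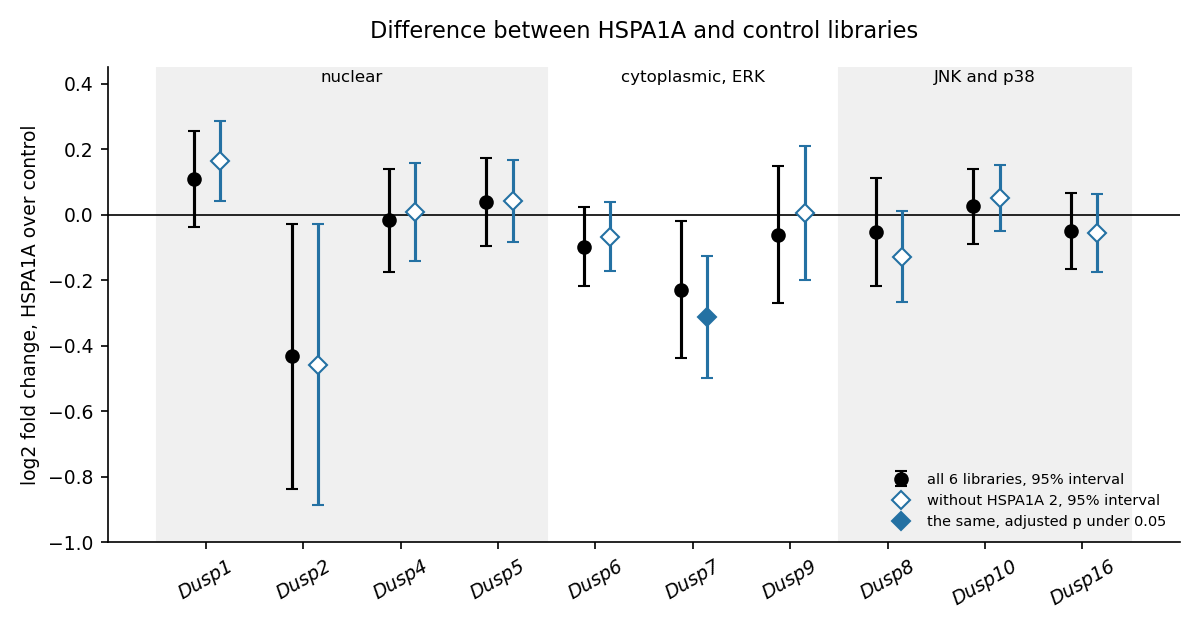
Log2 fold change of HSPA1A over control for each phosphatase with its 95% interval, from all 6 libraries (black circles) and without HSPA1A replicate 2 (blue diamonds, filled where the adjusted p is under 0.05). Dusp7 moves from -0.23 to -0.31 without that library and is the filled diamond, and the interval of Dusp2 is the widest in both fits.

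In each class, the phosphatase with the widest range over the libraries among those averaging at least 5 CPM, which leaves out Dusp2, was set against 9303 other genes above that level, by the root mean square difference of centred log2 CPM over the 6 libraries. For Dusp7, with a range of 0.45, the nearest genes were Vamp2 (0.043), Tead2 (0.043) and Wdtc1 (0.045), where the median gene differed by 0.177. For Dusp1, with a range of 0.23, they were Katnbl1 (0.017), S100pbp (0.018) and Pigh (0.021). For Dusp8, with a range of 0.24, they were Flii (0.011), Elovl1 (0.012) and Dgkz (0.018). The median difference was 0.116 for both Dusp1 and Dusp8. With 6 libraries of 2 groups, such closeness is a description of these libraries.

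The proximal promoters were read because Dusp1 transcription is known to respond to cAMP and stress signals. RefSeq promoter sequences on GRCm38.p6 were found for 8 of the 10 genes, and the 250 bases before each start were searched on both strands. The full cAMP response element, TGACGTCA, was found in Dusp1 and Dusp8, and in 1.55% of 32851 promoters of the same length. The stretch from 200 to 51 bases before the start is printed for both, with each TGACG or its reverse complement in capitals.
Dusp1, chr17:26508523-26508672, minus strand: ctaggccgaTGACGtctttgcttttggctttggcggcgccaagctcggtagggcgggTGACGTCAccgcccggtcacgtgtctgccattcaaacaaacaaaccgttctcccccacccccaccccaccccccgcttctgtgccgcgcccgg
Dusp8, chr7:142095335-142095484, minus strand: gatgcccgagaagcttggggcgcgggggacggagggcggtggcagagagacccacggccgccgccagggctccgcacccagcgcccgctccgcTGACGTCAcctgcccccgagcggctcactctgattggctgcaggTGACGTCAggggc
Dusp1 held 1 full element, 143 to 136 bases before the start, and 1 further TGACG at 191 bases, counted from the RefSeq start, which lies 47 bases downstream of the start of the GENCODE transcript. Dusp8 held 2 full elements, at 107 to 100 and 63 to 56 bases, before a RefSeq start that lies upstream of its GENCODE transcript. TGACG alone, which lies within the full element, was also found in Dusp5 and Dusp16 and in 17.8% of promoters. The heat shock pattern GAANNTTC was found in Dusp16 and in 6.69% of promoters. The serum response element's CArG box was found 2 times in Dusp5 and in 1.47% of promoters. The AP-1 pattern TGACTCA, the ETS pattern CCGGAAG and the NF-kB motif were found in 0 of the 8, against 4.46%, 6.91% and 7.25% of promoters. Dusp1 and Dusp8 had log2 fold changes of 0.11 and -0.053, neither called.

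AUUUA pentamers in a 3′ untranslated region mark many short-lived messages, and Dusp1 mRNA is known as one of them. Dusp1 and Dusp2 each held 4, a count that 27.7% of tested genes with an annotated 3′ untranslated region reach. Dusp8 held 5, reached by 20.9%, and Dusp10 and Dusp16 held 3 each. Dusp4 held 2, Dusp5, Dusp6 and Dusp9 held 1 each, and Dusp7 held 0. Any link between this count and the log2 fold changes was not tested. The counts are not scaled by the length of the region, whose median over the tested genes was 1018 bases. The region was taken from the stop codon on, so counts and lengths include that codon. So taken, it has 693 bases in Dusp1, 584 in Dusp2, 1781 in Dusp7, 2373 in Dusp8 and 2414 in Dusp16.

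The kinases that these phosphatases act on, and the genes around them, were read as lists. Of 22 ERK cascade genes 21 were tested, and none passed the threshold (edgeR's quasi-likelihood test; 0 higher and 1 lower at an unadjusted p under 0.05, and 0 by DESeq2). Without HSPA1A replicate 2, 0 of the 21 were called as well. With all 6 libraries their median log2 fold change was -0.030. The lowest p was that of Mknk1, an ERK and p38 activated kinase of the translation factor eIF4E, at 26.9 ± 1.6 CPM without and 24.1 ± 1.1 CPM with the HSPA1A plasmid (SD, n = 3 each), with a log2 fold change of -0.16 and an adjusted p of 0.568.

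Of 28 JNK and p38 cascade genes 24 were tested and none passed (2 higher and 2 lower at an unadjusted p under 0.05, and 0 by DESeq2), with a median of -0.037. Mapk8ip3, a JNK scaffold, averaged 37.8 ± 1.4 CPM over controls and 47.7 ± 7.8 CPM with HSPA1A (SD, n = 3 each), a log2 fold change of 0.34 with an adjusted p of 0.424. Mapk11, p38 beta, stood at 23.5 ± 1.2 and 19.2 ± 3.1 CPM, a log2 fold change of -0.29 with an adjusted p of 0.517. Without HSPA1A replicate 2, Mapk11 and the scaffold gene Mapk8ip1 were called lower, and Mapkapk5, a p38-family effector kinase, was called higher. That is 2 and 1 of 24, where 4.94% of all tested genes were called lower and 5.27% higher. Mapk8ip1 and Mapkapk5 were named after their values were seen. A second entry of the symbol Mapkapk5, with 12 reads over all libraries, was not used.

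Transcripts known to follow ERK activity gave 1 call. At an unadjusted p under 0.05 (edgeR's quasi-likelihood test), 0 were higher and 4 lower, where 4.26% of all tested genes were lower. Of 24 listed 22 were tested, and Ier3, an immediate-early regulator of ERK signalling and survival, was lower at 127 ± 7.7 CPM against 165 ± 5.4 CPM in control (SD, n = 3 each). Its log2 fold change was -0.37 ± 0.058 (SE), with an adjusted p of 0.0428 in edgeR's quasi-likelihood test, and it was called in 6 of 17 other settings and in 1 of 6 fits that leave out a library. The call was lost with the fold kept under the replicate block (-0.38, adjusted p = 0.0582) and a filter of 5 CPM (-0.37, adjusted p = 0.0522), and with a smaller fold under a Yam1 covariate (-0.28, adjusted p = 0.679). The median of the list was -0.034. The Spry and Spred genes, feedback inhibitors often induced beside Dusp6, gave no call. Spry2 stood at 0.062, Spry4 at 0.0040 and Spred3 at -0.46 on the log2 scale, none called, and these were named after their values were seen. Without HSPA1A replicate 2, where 4.94% of all tested genes were called lower, 5 of the 22 tested were, namely Etv4, Fosl1, Ier3, Phlda1 and Spred3.

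The messages that p38 and its effector kinase MK2 are known to stabilise, and that Dusp1 is known to restrain, held 2 of the calls. Of 15 listed 10 were tested, and the chemokine genes Cxcl1 and Ccl2 fell. At an unadjusted p under 0.05 (edgeR's quasi-likelihood test), 0 were higher and 5 lower, where 4.26% of all tested genes were lower. Cxcl1 went from 177 ± 4.4 to 51.6 ± 7.6 CPM, a log2 fold change of -1.78, and Ccl2 from 27.1 ± 2.4 to 12.3 ± 0.52 CPM, a log2 fold change of -1.14 (SD, n = 3 each). Both were called in all 17 other settings. Lif, a cytokine of the IL-6 family, was also called lower without HSPA1A replicate 2, at -0.53 with an adjusted p of 0.0271. The list was chosen with some of its genes known to be lower here. Its median of -0.26 and its counts of lower genes are therefore no independent evidence of its direction. The RNA-binding destabilisers Zfp36, Zfp36l1 and Zfp36l2, which belong to the same list, stood at 0.060, 0.039 and -0.047, none called. Dusp1 itself stood at 0.11.

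Of 22 other phosphatases that act on MAP kinases and atypical dual-specificity phosphatases, 17 were tested and none passed (0 higher and 1 lower at an unadjusted p under 0.05, and 0 by DESeq2), with a median of -0.010. Dusp14, a small dual-specificity phosphatase without a kinase-binding region, had the lowest p. It averaged 33.4 ± 2.6 CPM over controls and 28.6 ± 2.3 CPM with HSPA1A (SD, n = 3 each), with a log2 fold change of -0.22 and an adjusted p of 0.505. Ppm1d, a p53-induced phosphatase that acts on p38, followed at 0.14 with an adjusted p of 0.681. Without HSPA1A replicate 2, Ppp2ca, a catalytic subunit of PP2A, was called higher at 0.14, where 5.27% of all tested genes were.

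**Figure D4:**
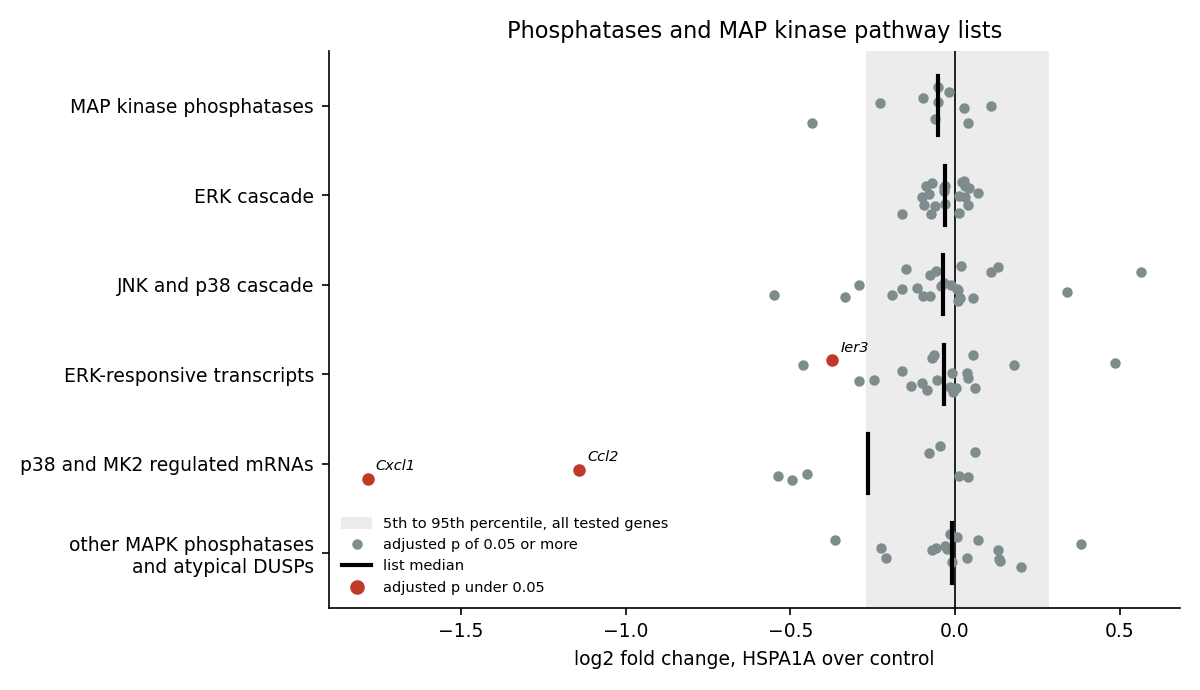
Log2 fold change of HSPA1A over control for each tested gene of the phosphatases and of 5 lists of related genes, with the list median as a black bar, genes with an adjusted p under 0.05 in red, and the 5th to 95th percentile of all tested genes as a grey band. Of the phosphatases only Dusp2, at -0.43, lies outside the band, and the red points are Ier3, Cxcl1 and Ccl2.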

How the data were processed

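The authors deposited 2 tables, one of raw read counts by gene and one of rounded FPKM for 22833 of the 22913 genes. Per the labels, libraries were stranded and read as 150-nt pairs. Per the submitters' processing notes, bcl2fastq, TopHat2, edgeR and GRCm38 were used. No source used here names the read counter, whether it used strand, or the annotation. 0 columns were left unused.

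Groups came from the labels. Counts were scaled by TMM, and 12827 genes kept by filterByExpr (minimum count 10, total 15) were compared with edgeR 4.0.16 (quasi-likelihood test, Benjamini-Hochberg over all tested genes, threshold 0.05) under R 4.3.3. The test was checked on simulated data. Alternatives were RLE factors, library totals, DESeq2 1.42.0, limma-voom (limma 3.58.1), no filter, a 5 CPM filter, a replicate block, a Yam1 covariate, FPKM on a log2 scale with a pseudocount of 1 or 0.1, and each library left out.

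Coordinates and transcripts came from GENCODE M21 (GRCm38), with 22729 gene identifiers found, and promoters from RefSeq (GRCm38.p6). The coordinates given are those of 1 transcript a gene. The members and lists were chosen with earlier results of these data known. Named were all members, called list genes or else the 2 of lowest p, and the 3 nearest genes to 1 member a class. One gene that this rule names is not reported here. Others were named after their values were seen. Figures were drawn with matplotlib 3.10.9.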

Additional observations from a re-analysis of the deposited data

How the results depend on the processing

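Depth limits Dusp2 most, at 45 to 94 reads a library, and it has no value under the 5 CPM filter. Against 23 genes called (3 higher, 20 lower), DESeq2 called 64 (26 higher, 38 lower), no filter 205 (94 higher, 111 lower), a Yam1 covariate 11 (3 higher, 8 lower), FPKM plus 1 gave 15 (5 higher, 10 lower) and, with a mean FPKM of at least 1, 15 (0 higher, 15 lower). Leaving out a library gave 10 (without control replicate 3) to 1323 (without HSPA1A replicate 2) genes, 0 to 1 phosphatase, 0 to 3 JNK and p38 cascade genes, 0 to 5 ERK-responsive transcripts and 0 to 1 other phosphatase. Without a filter 1 JNK and p38 cascade gene (Mapk8ip3) and 3 ERK-responsive transcripts (Ier3, Etv4 and Spred3) were called. The ERK-responsive count was 0 under the 5 CPM filter, the replicate block, the Yam1 covariate and each FPKM fit. The cause was not tested.

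Of 169 phosphatase values under these settings, 153 kept direction and side of the threshold, 15 changed sign and 1, Dusp7 without HSPA1A replicate 2, became called. The sign changed with the Yam1 covariate for Dusp1 (-0.037), Dusp8 (0.071) and Dusp10 (-0.025), and with library totals for Dusp10 (-0.010). On FPKM plus 1, with or without the filter, Dusp5 stood at -0.018 and Dusp10 at -0.031, and with a pseudocount of 0.1 at -0.018 and -0.031. Leaving out a library gave -0.075 to 0.026 for Dusp4, -0.0013 to 0.075 for Dusp5 -0.097 to 0.0055 for Dusp9, -0.13 to -0.0018 for Dusp8, 0.0017 to 0.050 for Dusp10 and -0.066 to -0.031 for Dusp16.

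The labels do not say whether same-numbered libraries shared a culture or batch. Deviations of same-numbered libraries from their group means correlated at -0.094, 0.0052 and 0.080. With 3 libraries a group, such correlations cannot show whether the libraries were paired. With a replicate block, 16 genes (3 higher, 13 lower) and 0 phosphatases were called.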

Other observations

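The atypical dual-specificity phosphatases are small enzymes without the kinase-binding region, and none of those tested was called with all 6 libraries. Dusp11, an RNA phosphatase, stood at 24.6 ± 0.24 FPKM in control and 23.7 ± 0.94 FPKM in HSPA1A libraries (SD, n = 3 each). Dusp3, which can act on ERK and JNK, stood at 23.4 ± 0.51 and 21.4 ± 1.8 FPKM, Dusp18 at 18.7 ± 1.2 and 17.9 ± 2.0 FPKM, and Dusp12 at 17.1 ± 1.0 and 16.8 ± 2.2 FPKM. From the counts, edgeR's log2 fold changes were 0.0069 for Dusp11, -0.070 for Dusp3, -0.010 for Dusp18 and 0.036 for Dusp12. Dusp15 and Dusp26 were listed at 0 to 0.02 and 0 to 0.03 FPKM. Ptpn7 and Ptprr, tyrosine phosphatases of ERK and p38, had too few reads to be tested. Ppp2ca, the PP2A catalytic subunit that can dephosphorylate ERK, was the most abundant of the phosphatases listed, at 73.5 ± 0.74 and 74.1 ± 4.8 FPKM.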
